A study of Mus musculus with 8 samples.

Results

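The comparison described here set Ly6C+ virtual memory (VM) CD8 T cells against naive CD8 T cells. It used 5 of the 8 libraries of the study: 4 of Ly6C+ VM cells, taken by their labels, and 1 of naive cells. The mice were wild-type C57BL/6, of an age the labels do not give, and the tissue was spleen. They were enriched with anti-CD8 microbeads, and naive cells were then sorted as CD44- CD49d- and VM cells as CD44hi CD49d-. The Ly6C+ VM cells were 2 libraries of Sca-1- cells and 2 of Sca-1+ cells. The remaining 3 libraries, 1 each of Ly6C- Sca-1- VM, Ly6C- Sca-1+ VM and true memory cells (CD44hi CD49d+), entered the same fit and are used only where Ly6C+ cells are set against Ly6C- cells or shown beside them. The 2 libraries of a group are called A and B, after the column names of the table, where a suffix that the labels do not explain marks B. The naive, Ly6C- VM and true memory columns lack it, like A, so whatever the suffix stands for enters the comparison of the B libraries with naive. Values of the Ly6C+ libraries are given in the order Sca-1- A, Sca-1- B, Sca-1+ A, Sca-1+ B. Where values are set against naive, VM cells and VM libraries without a further name are the Ly6C+ ones. Nothing in the labels says whether libraries came from separate animals or pools, so the p-values measure only the spread between these libraries.

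Virtual memory cells are CD8 T cells with a memory surface phenotype that form without meeting foreign antigen, under self-ligands and cytokines such as IL-15 and, in some strains, IL-4. IL-15 reaches T cells mainly through the receptor beta chain (Il2rb) and the common gamma chain (Il2rg), and the T-box factors T-bet (Tbx21) and Eomes (Eomes) are known to keep that beta chain high in memory CD8 T cells. Memory-phenotype CD8 T cells are known for quick release of interferon gamma after IL-12 and IL-18, while naive cells recirculate and hold effector genes low. Ly6C is a surface protein of many memory CD8 T cells.

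Library totals ran from 49993407 to 63815914 counts, with 55750230 in the naive library and 49993407 to 60898155 in the Ly6C+ VM libraries, so 1 count was worth 0.0167 to 0.0198 CPM, the count scaled by library size, in these 5. On the first principal component of the 5 libraries, which held 50.6% of the variance, the naive library lay at 67.8 and the Ly6C+ VM libraries at -20.9 to -12.3. The second, with 24% of the variance, set Sca-1- B at 42.8 apart from the others at -23.6 to 3.38. The T cell markers Cd3d, Cd3e, Cd3g, Cd247, Trac, Lck, Cd2 and Thy1 were detected in every library, and their sum was 4060 CPM in the naive library and 3995 to 4172 CPM in the Ly6C+ VM libraries. Cd4 was at 0.954 CPM or lower in these 5 libraries. The gates were visible in the RNA and are no finding here: the naive library held 6.18 CPM of Cd44 and the Ly6C+ VM libraries 159 to 203 CPM, and Ly6c2 was at 135 and 901 to 1009 CPM. Its near-identical neighbour Ly6c1 was at 10.5 and 74.7 to 83.2 CPM, and how reads were divided between the pair is uncertain. The CD49d gene Itga4 stood at 814 CPM in the naive library and at 244 to 350 CPM in Ly6C+ VM libraries although both were sorted as CD49d-.

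Ly6C+ VM cells held more RNA than naive cells for 9 of 18 memory and effector transcription factors, among them Tbx21 and Eomes, for 8 of 17 cytotoxic granule genes, for 6 of 18 cytokines and chemokines such as Ccl5, and for the receptor genes Il2rb, Il18rap, Il18r1 and Cxcr3. They held less for Ccr9, Itgae and Ifngr2, and for 2 of the transcription factors and 2 of the cytokines and chemokines. By edgeR's quasi-likelihood test over 15112 genes, 857, or 5.67%, had a Benjamini-Hochberg adjusted p under 0.05 and are referred to as called. Of these, 535 were higher in Ly6C+ VM cells (3.54% of the genes tested) and 322 were lower (2.13%). Past 2-fold, 407 were higher and 181 lower. All 4 Ly6C+ VM libraries lay above the naive library for 4509 genes (29.8%) and below it for 4438 (29.4%), so a lack of overlap with the lone naive library is common and is read against these shares. The naive group was 1 library, assumed to vary like the replicated groups. An exact permutation test of 4 libraries against 1 cannot fall under p = 0.2 and was not used. In a bulk library, fewer cells of a type and less RNA per cell cannot be told apart.

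Among the genes with the largest increase, Klrc1 (Gene ID 16641, chromosome 6, 129666015 to 129682852 in mm10), the gene for the inhibitory lectin-like receptor NKG2A, was at 0.107 CPM in naive cells, which was 6 counts, and at 25.2, 22.0, 21.0 and 18 CPM in Ly6C+ VM cells. Every Ly6C+ library was far above the naive one, and the log2 fold change was 7.62 ± 0.32 (standard error, SE, adjusted p = 0.00028). Samd3, a SAM domain gene, was at 1.30 CPM in naive cells and 147, 152, 126 and 116 CPM in VM cells (6.70 ± 0.16). Plek, which encodes the protein kinase C substrate pleckstrin, was at 2.41 CPM against 189, 192, 178 and 154 CPM (6.20 ± 0.18).

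Scavenger receptor genes of 1 locus were among them. Cd163l1 (Gene ID 244233, chromosome 7, 140197218 to 140231145), of the scavenger receptor cysteine-rich family, was at 1.12 CPM in naive cells and 123, 153, 159 and 146 CPM in VM cells, a log2 fold change of 7.01 ± 0.24. Its neighbour 5830411N06Rik (140247279 to 140300734) was at 1.97 CPM and 77.6, 93.3, 148 and 148 CPM (5.83 ± 0.19). The Sca-1+ libraries lay above the Sca-1- libraries for 5830411N06Rik. Likeness between these neighbours makes the division of reads between them uncertain. Others were Dlg5, a polarity scaffold (6.61 ± 0.72), Edaradd, an adaptor of the ectodysplasin receptor (5.96 ± 0.37), the inhibitory receptor gene Lilr4b (5.6 ± 1.16, adjusted p = 0.049) and the p21-activated kinase gene Pak6 (5.59 ± 0.83). Naive counts were 20 for Dlg5, 11 for Edaradd, 8 for Lilr4b and 9 for Pak6, so their folds rest on few naive counts. Lilr4b has a near copy, Lilrb4a, and with limma-voom the adjusted p was 0.068 for Dlg5, 0.17 for Lilr4b and 0.075 for Pak6.

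Ccr9 and Itgae were among the genes with the largest decrease. Ccr9 (Gene ID 12769, chromosome 9, 123767211 to 123783457), the receptor for the gut and thymus chemokine CCL25, was at 208 CPM in naive cells and 2.06, 5.07, 6.12 and 14.0 CPM in Ly6C+ VM cells. It fell by 5.12 ± 0.44 on the log2 scale (adjusted p = 0.0032). Itgae (Gene ID 16407, chromosome 11, 73090505 to 73147449), for the CD103 integrin chain that binds E-cadherin, was at 318 CPM against 6.03, 9.31, 16.7 and 26.4 CPM (log2 fold change -4.63 ± 0.25, adjusted p = 0.00078). For both genes the Sca-1- libraries were the lowest. Igfbp4, an insulin-like growth factor binding protein gene, was at 319 CPM in naive cells and 24.4, 27.1, 43.7 and 40.7 CPM in VM cells (-3.28 ± 0.09).

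The other genes with a large decrease included Tmie, named for its role in the inner ear, at 56.6 CPM in naive and 4.46 to 10.2 CPM in Ly6C+ VM cells (-3.02 ± 0.14). Slc6a19, a neutral amino acid transporter gene, was at 83.3 CPM and 6.00 to 22.2 CPM (-2.71 ± 0.17), and this call was lost when the 4 Ly6C+ libraries were fitted as 1 group with naive alone (adjusted p = 0.058). Ntrk3, the neurotrophin-3 receptor gene (-2.60 ± 0.17), the kinase gene Matk (-2.51 ± 0.18), Ramp1, a part of the receptor for calcitonin gene-related peptide (-2.40 ± 0.20), and the membrane and actin binding gene Mtss1 (-2.36 ± 0.21) completed the 10. Genes entered these 10 only if every Ly6C+ VM library was at least 2-fold below naive.

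**Figure D1:**
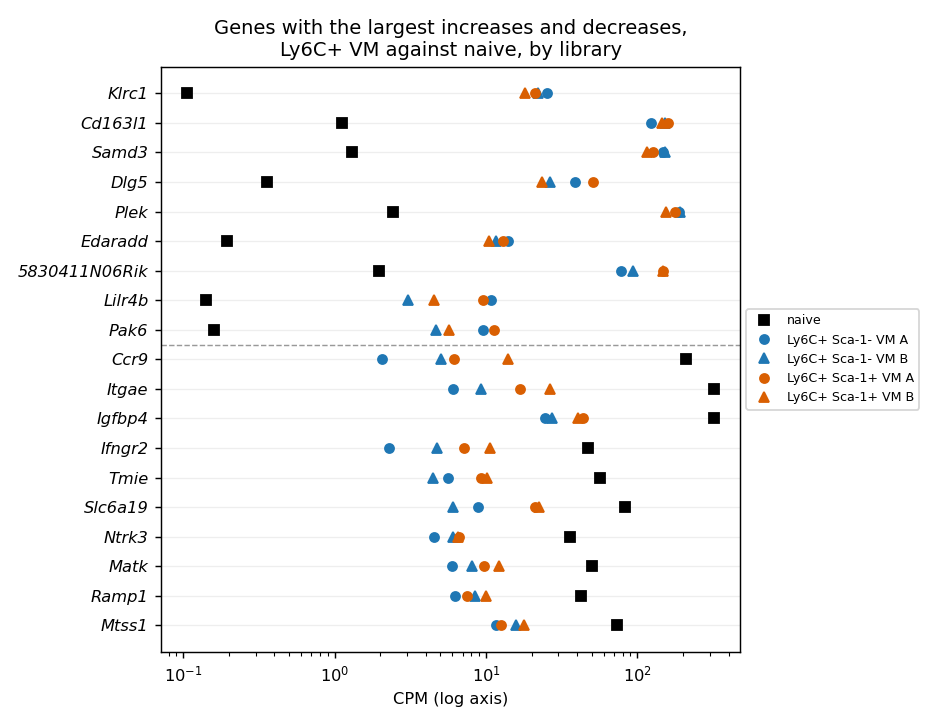
Points give CPM on a log axis for each of the 5 libraries, for genes with the largest increases (above the dashed line) and decreases (below it) in Ly6C+ VM cells, among called protein-coding genes at least 2-fold apart in every Ly6C+ library. The naive library (black squares) lies outside all 4 Ly6C+ VM libraries for each gene, from 0.107 CPM for Klrc1 to 319 CPM for Igfbp4.

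Of 18 memory and effector transcription factors tested, 9 rose, 2 fell and 7 were not called (61.1% called, against 5.67% of all genes). Their median log2 fold change was 1.08, against 0.00701 over all genes tested. Tbx21 (Gene ID 57765, chromosome 11, 97098007 to 97115331), which encodes T-bet, was at 4.83 CPM in naive cells and 141, 88.5, 111 and 78.8 CPM in Ly6C+ VM cells (4.43 ± 0.39, adjusted p = 0.0034). Both A libraries lay above both B libraries, and all 4 were above naive. Eomes was at 38 CPM in naive cells and 230, 256, 198 and 219 CPM in VM cells (2.57 ± 0.14, adjusted p = 0.00082). Runx2, a runt domain factor, was at 5.36 CPM and 107, 77.4, 103 and 69.8 CPM (4.06 ± 0.34). The other increases were Bhlhe40 (3.6 ± 0.60), the transcriptional repressor gene Zeb2 (3.00 ± 0.34), Prdm1, the gene for Blimp-1 (2.86 ± 0.31), Nfil3 (2.75 ± 0.25), Hopx (1.99 ± 0.17) and Irf8 (1.21 ± 0.19). Zeb2 and Prdm1 stayed low, at 1.45 to 5.64 and 3.73 to 4.73 CPM in VM cells. For Zeb2 the Sca-1- libraries were at 1.58 and 1.45 CPM and the Sca-1+ libraries at 4.15 and 5.64 CPM. Bhlhe40 was not called by limma-voom (adjusted p = 0.089), nor Zeb2 with the 4 libraries as 1 group (adjusted p = 0.13).

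Id2 and Gfi1 went the other way. Id2, an inhibitor of DNA binding by E proteins that effector CD8 T cells are known to need, was at 148 CPM in naive cells and 62.7, 49.1, 57.6 and 53.1 CPM in Ly6C+ VM cells (-1.42 ± 0.14, adjusted p = 0.0041). Gfi1, a zinc finger repressor, was at 42.3 CPM and 23.7, 21.7, 17.8 and 23.8 CPM (-0.96 ± 0.16, adjusted p = 0.027). Runx3, Runx1, Batf, Irf4, Hif1a, Rora and Zbtb38 were not called, with log2 fold changes from -0.57 to 0.95.

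Naive-associated transcription factors, with the actin crosslinker gene Actn1 among them, numbered 16 in the test. Of these 3 fell, 1 rose and 12 were not called (25% called, against 5.67% of all genes), with a median of -0.12. Lef1, a partner of beta-catenin, was at 624 CPM in naive cells and 385, 339, 391 and 350 CPM in Ly6C+ VM cells (-0.77 ± 0.12, adjusted p = 0.02). Its relative Tcf7, for TCF-1, was at 1648 CPM in naive cells and 1607, 1457, 1635 and 1482 CPM in VM cells, a log2 difference of -0.09 ± 0.12 that did not pass the test. Sox4 fell (-1.42 ± 0.26, adjusted p = 0.032), but not with the 4 libraries as 1 group (adjusted p = 0.099), and Actn1 fell (-0.65 ± 0.12, adjusted p = 0.032) but not without Sca-1+ A (adjusted p = 0.061) or without Sca-1+ B (adjusted p = 0.083). Myb, a factor of self-renewing lymphocytes, was the 1 that rose, from 39.1 CPM in naive cells to 167, 169, 105 and 130 CPM (1.84 ± 0.16, adjusted p = 0.0032). Foxo1, Bach2, Bcl11b, Satb1, Klf2, Id3 and the others had log2 differences from -0.47 to 0.10. Klf2 was at 947 and 822 CPM in the A libraries and 440 and 526 CPM in the B libraries, with naive at 745 CPM between them.

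Because 2 T-box factors rose, the promoters of the listed genes that rose were searched for the T-box half-site TCACACC on both strands, in the 250 bases before each RefSeq transcript start (GRCm38.p6, the same coordinates as mm10). Of the 107 genes that rose in the lists by role, marker lists left out, 83 had a promoter entry and 7 of these held the half-site. The 4 with the smallest p-values are printed on the gene's strand, 5′ to 3′, with the half-site in capitals; in each it reads GGTGTGA, the reverse complement. The entries are Myb (minus strand), Gzmm (plus), Xcl1 (minus) and Bcl2l1 (minus).
Myb, chr10:21160985-21161234: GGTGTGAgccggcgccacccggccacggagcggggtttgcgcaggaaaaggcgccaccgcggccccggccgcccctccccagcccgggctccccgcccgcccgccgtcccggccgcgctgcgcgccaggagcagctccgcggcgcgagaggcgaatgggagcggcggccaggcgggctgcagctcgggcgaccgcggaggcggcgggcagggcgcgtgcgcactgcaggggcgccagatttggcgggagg
Gzmm, chr10:79693576-79693825: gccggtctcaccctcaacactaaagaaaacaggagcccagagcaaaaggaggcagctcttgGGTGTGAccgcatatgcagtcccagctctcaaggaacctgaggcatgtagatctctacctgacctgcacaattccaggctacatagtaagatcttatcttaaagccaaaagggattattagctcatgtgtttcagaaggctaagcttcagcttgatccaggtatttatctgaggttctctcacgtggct
Xcl1, chr1:164935523-164935772: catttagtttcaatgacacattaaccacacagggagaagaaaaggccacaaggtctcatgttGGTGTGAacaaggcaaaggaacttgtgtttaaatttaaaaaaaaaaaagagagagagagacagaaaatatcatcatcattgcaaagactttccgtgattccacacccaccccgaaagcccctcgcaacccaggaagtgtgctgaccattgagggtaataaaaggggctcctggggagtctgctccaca
Bcl2l1, chr2:152828490-152828739: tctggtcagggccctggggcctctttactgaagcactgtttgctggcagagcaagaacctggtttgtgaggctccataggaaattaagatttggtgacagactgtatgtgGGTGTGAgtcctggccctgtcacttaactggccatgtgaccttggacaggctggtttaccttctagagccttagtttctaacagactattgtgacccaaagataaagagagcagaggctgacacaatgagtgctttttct

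The half-site began 250 bases before the start in Myb, 189 in Gzmm, 188 in Xcl1 and 140 in Bcl2l1. The starts of the Gzmm and Bcl2l1 windows lie inside the annotated genes, 4806 and 5314 bases from their 5′ ends, so they are internal starts in the annotation. Gzmm has 2 windows in the table and Bcl2l1 has 3. It was held by 4.04% of the 544 promoter windows of genes that rose, 3.72% of the 349 of genes that fell, 2.81% of the 13312 of genes tested and 3.33% of the 32851 in the table. For the STAT motif TTCNNNGAA these shares were 7.35%, 3.15%, 6.09% and 7.02%, and for the TCF/LEF motif CTTTGAA they were 3.49%, 4.01%, 3.24% and 4.46%. No test was made of these shares, several genes have more than 1 window, and a match of letters does not show that a factor binds there. The shares are of windows, whereas the 7 of 83 are genes with the half-site in any of their windows. The 7 of 83 therefore cannot be set against these shares.

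Among receptors that use the common gamma chain, 2 of 7 tested rose and none fell (median 0.53, 28.6% called against 5.67% of all genes). Il2rb (Gene ID 16185, chromosome 15, 78479256 to 78511621), the beta chain shared by the IL-2 and IL-15 receptors, was at 223 CPM in naive cells and 1465, 1312, 1222 and 978 CPM in Ly6C+ VM cells. All Ly6C+ VM libraries were at least 4-fold above naive, with a log2 fold change of 2.47 ± 0.18 (adjusted p = 0.0019). Il15ra, which presents IL-15, was at 11.9 CPM and 20.4, 18.1, 20.8 and 23.2 CPM (0.79 ± 0.16, adjusted p = 0.046), and its call was lost without Sca-1+ A (adjusted p = 0.086) or Sca-1+ B (adjusted p = 0.11). Il2rg, the common chain, was at 664 CPM in naive cells and 557, 590, 593 and 613 CPM in VM cells, a log2 difference of -0.17 ± 0.10 that did not pass. Il7r was at 518 CPM and 631, 819, 745 and 798 CPM (0.53 ± 0.17, adjusted p = 0.15), and Il4ra at 216 CPM and 484, 347, 469 and 359 CPM (0.94 ± 0.24, adjusted p = 0.085). Both lay above naive in all 4 Ly6C+ VM libraries without passing the test.

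Il2ra, the high-affinity IL-2 receptor chain, was at 1.00 to 3.15 CPM in VM cells and 1.38 CPM in naive cells. Among 18 JAK-STAT and SOCS genes only Stat4, the transducer of IL-12 signals, was called (143 CPM in naive, 249, 263, 243 and 266 CPM in VM cells; 0.84 ± 0.12, adjusted p = 0.013), a share of 5.56% that is near the background.

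Other cytokine receptors split in both directions: of 19 tested, 7 rose and 3 fell (median 0.09, 52.6% called against 5.67% of all genes). Il18rap (Gene ID 16174, chromosome 1, 40515362 to 40551707), the accessory chain of the IL-18 receptor, was at 8.13 CPM in naive cells and 279, 272, 259 and 241 CPM in Ly6C+ VM cells (5.01 ± 0.15, adjusted p = 7.4e-05). Il18r1, the ligand-binding chain, was at 72.7 CPM and 374, 280, 419 and 297 CPM (2.23 ± 0.27, adjusted p = 0.0085). Both chains of that receptor were therefore higher in every Ly6C+ VM library. Il10ra (1.40 ± 0.14) and Il10rb (1.00 ± 0.10), the 2 chains of the IL-10 receptor, also rose. Il12rb1 (0.90 ± 0.18, adjusted p = 0.047) and Ifnar2 (0.50 ± 0.10, adjusted p = 0.045) rose by less, and their calls were lost without Sca-1+ A (adjusted p = 0.063 and 0.13), that of Ifnar2 also without Sca-1+ B (adjusted p = 0.12).

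The 2 chains of the interferon gamma receptor moved in opposite directions. Ifngr1, the ligand-binding chain, was at 140 CPM in naive cells and 378, 371, 350 and 333 CPM in Ly6C+ VM cells (1.35 ± 0.11, adjusted p = 0.003). Ifngr2 (Gene ID 15980, chromosome 16, 91547059 to 91564007), the chain that brings in JAK2, was at 47.0 CPM in naive cells and 2.29, 4.74, 7.11 and 10.6 CPM in VM cells, and fell by 3.08 ± 0.32 on the log2 scale (adjusted p = 0.0056). Every Ly6C+ VM library was thus above naive for 1 chain and below it for the other. The other decreases were Tgfbr3, a co-receptor for TGF-beta (54.1 CPM against 12.7 to 18.4 CPM; -1.84 ± 0.13, adjusted p = 0.0016), and Il27ra (490 CPM against 326 to 344 CPM; -0.54 ± 0.10, adjusted p = 0.031). The call of Il27ra was lost without Sca-1+ A or without Sca-1+ B (adjusted p = 0.11 for each).

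**Figure D2:**
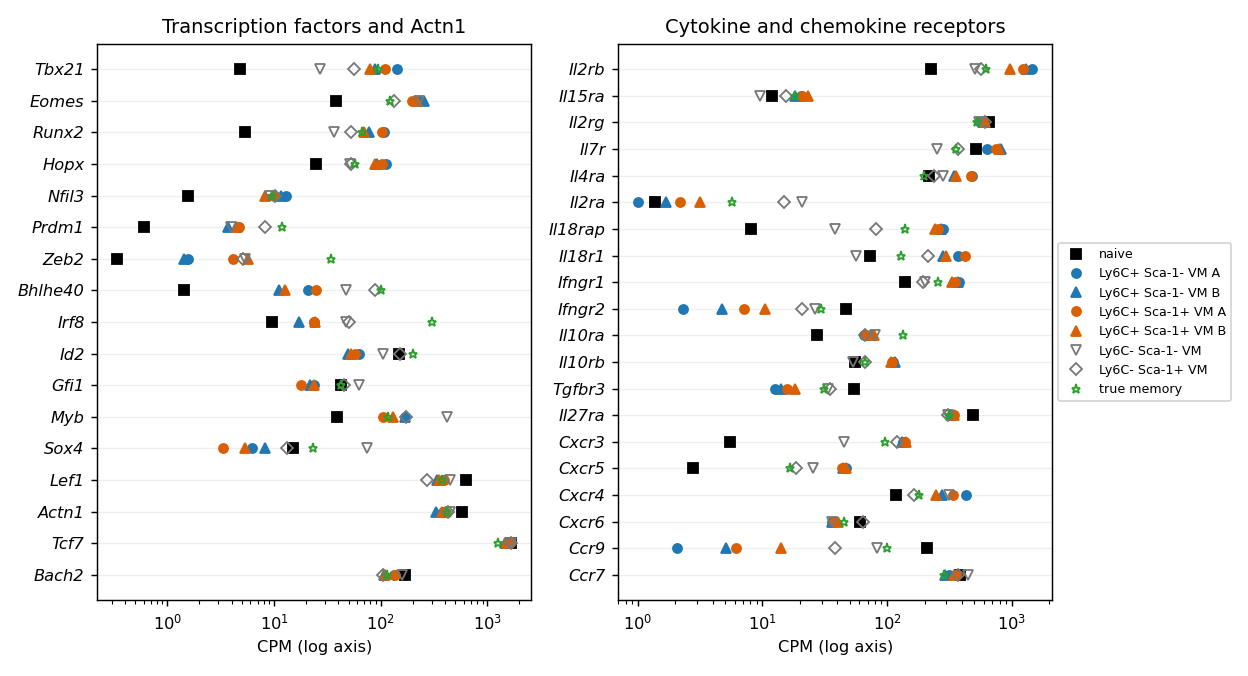
Points give CPM on a log axis in all 8 libraries for transcription factors with Actn1 (left) and for cytokine and chemokine receptors (right); filled symbols are the 5 libraries compared and open symbols the Ly6C- VM and true memory libraries. Il18rap stands at 8.13 CPM in the naive library and at 241 to 279 CPM in Ly6C+ VM cells, while Ifngr2 stands at 47.0 CPM and 2.29 to 10.6 CPM.

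Chemokine receptors changed in 6 of 10 tested (60% called, against 5.67% of all genes), with 4 higher and 2 lower. Cxcr3 (Gene ID 12766, chromosome X, 101731535 to 101734147), the receptor for interferon-induced chemokines, was at 5.49 CPM in naive cells and 134, 133, 138 and 143 CPM in Ly6C+ VM cells (4.64 ± 0.13, adjusted p = 7.4e-05). Cxcr5, the receptor for the follicle chemokine CXCL13, was at 2.75 CPM and 46.9, 44.4, 43.5 and 47.2 CPM (4.05 ± 0.16, adjusted p = 0.00027). These values hardly varied between Ly6C+ VM libraries. Cxcr4 rose by less (117 CPM against 433, 278, 338 and 247 CPM; 1.46 ± 0.30, adjusted p = 0.046), and without a filter on low counts its adjusted p was 0.06. Besides Ccr9, Cxcr6 fell (61.2 CPM against 36.1 to 40.3 CPM; -0.70 ± 0.10, adjusted p = 0.013). Ccr7, the lymph node homing receptor, was at 382 CPM in naive cells and 315, 291, 360 and 347 CPM in VM cells, a log2 difference of -0.22 ± 0.10 that did not pass. Cx3cr1, a receptor of effector-like memory cells, was at 3 counts in naive cells and at 22, 16, 44 and 148 counts in VM cells, and it was not called.

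Integrins and sialyltransferases changed in part. Of 14 integrin chains, 3 rose and 2 fell (35.7% called, against 5.67% of all genes). Itgb1, the beta chain of the VLA integrins, was at 58.0 CPM in naive cells and 213, 212, 235 and 226 CPM in Ly6C+ VM cells (1.93 ± 0.12, adjusted p = 0.0011), and Itgax, for CD11c, was at 2.72 CPM and 22.7, 27.9, 28.4 and 32.4 CPM (3.35 ± 0.20). Itga2 was the third that rose (2.70 CPM against 10.5, 7.83, 6.45 and 6.09 CPM; 1.49 ± 0.25, adjusted p = 0.026), and with the 4 libraries as 1 group its adjusted p was 0.061. Itgb7, which pairs with the chains of Itgae and Itga4, fell (824 CPM against 471, 399, 497 and 475 CPM; -0.84 ± 0.12, adjusted p = 0.015). Of 10 egress, selectin and selectin-ligand genes 20% were called. The sialyltransferase genes St3gal6 (25.8 CPM against 84.2 to 95 CPM, 1.81 ± 0.11) and St3gal4 (0.68 ± 0.11) rose. The call of St3gal4 was lost without Sca-1+ A.

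Chemokine and cytokine genes followed, with 6 of 18 higher and 2 lower (median 0.40, 44.4% called against 5.67% of all genes). Ccl5 (Gene ID 20304, chromosome 11, 83525778 to 83530518), the chemokine RANTES, was at 5.89 CPM in naive cells and 386, 243, 262 and 222 CPM in Ly6C+ VM cells (5.55 ± 0.36, adjusted p = 0.0014). Sca-1- A was the highest, and the lowest VM library was still far above naive. Ifng (Gene ID 15978, chromosome 10, 118441046 to 118445894), the gene for interferon gamma, was at 1.46 CPM in naive cells and 55.3, 18.9, 57.1 and 27.4 CPM in VM cells (4.76 ± 0.89, adjusted p = 0.035). Its A libraries were at least 2-fold above its B libraries, and limma-voom did not call it (adjusted p = 0.17). Ccl4 also had both A libraries above both B libraries (1.10 CPM against 28.5, 12.4, 25.5 and 15.8 CPM, 4.22 ± 0.66, adjusted p = 0.02), with an adjusted p of 0.087 by limma-voom. Xcl1, which attracts cross-presenting dendritic cells, was at 4.67 CPM and 34.5, 21.7, 26.2 and 25.9 CPM (2.53 ± 0.30). The TNF family ligand genes Tnfsf14 (3.06 ± 0.25) and Tnfsf8 (1.13 ± 0.10) rose too. Flt3l, a dendritic cell growth factor gene, fell (-0.64 ± 0.10, adjusted p = 0.017), and Cxcl16, the ligand of CXCR6, fell at low counts (1.03 CPM against 0.0595 to 0.352 CPM, adjusted p = 0.038), with an adjusted p of 0.053 when no filter was used.

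Cytotoxic mediators rose in 8 of 17 tested and none fell (median 0.85, 47.1% called against 5.67% of all genes). Gzmm, for granzyme M, was at 1.42 CPM in naive cells and 51.8, 36.8, 50.6 and 31.8 CPM in Ly6C+ VM cells (4.91 ± 0.43, adjusted p = 0.0034). Fasl, the death ligand gene, was at 0.16 CPM, which was 9 counts, and at 8.76, 5.09, 8.4 and 6.80 CPM (5.49 ± 0.55, adjusted p = 0.0049). Prf1, for perforin, was at 45.5 CPM in naive cells and 78.4, 81.3, 84.4 and 84.5 CPM in VM cells (0.85 ± 0.10, adjusted p = 0.0073). Perforin RNA was thus present in the naive library, and the 4 VM libraries stood close together above it. The granule genes Cst7 (1.03 ± 0.13) and Ctsw (0.75 ± 0.11), the death ligand gene Tnfsf10 (0.78 ± 0.11) and the protease inhibitor genes Serpinb9 (0.99 ± 0.16) and Serpinb6b (1.26 ± 0.13) also rose. Gzmb, for granzyme B, was at 1.62 CPM in naive cells and 2.53, 2.93, 6.16 and 10.1 CPM in VM cells and was not called over the 4 libraries (adjusted p = 0.053). It was called in Sca-1+ cells alone (log2 fold change 2.33, adjusted p = 0.02). Gzma was at 14 counts in naive cells and 87 to 493 in VM cells (adjusted p = 0.082).

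NK receptor genes rose in 6 of 13 tested and none fell (median 1.06, 46.2% called against 5.67% of all genes). The list held 29 genes, and only these 13 could be tested. Besides Klrc1 these were Klra3 (0.408 CPM in naive, 21.4, 16.2, 15.2 and 9.71 CPM in Ly6C+ VM cells; 5.22 ± 0.46), Klra6 (4.59 ± 0.48), Slamf7 (4.40 CPM against 62.8, 66.9, 56.5 and 65.5 CPM; 3.84 ± 0.16), Crtam (0.79 ± 0.10) and Cd160 (0.77 ± 0.11). Klra3 and Klra6 are Ly49 genes with near copies, so the assignment of their reads is uncertain, and they were highest in the Sca-1- libraries. Klrd1, for the CD94 partner of NKG2A, was at 110 CPM in naive cells and 136, 192, 133 and 161 CPM in VM cells (0.49 ± 0.21, adjusted p = 0.28). With the 4 libraries as 1 group, Klra6 (adjusted p = 0.052) and Cd160 (adjusted p = 0.12) were not called. Of 6 NK cell markers tested, 2 rose, Eomes and Itga2, and none fell (median 1.37, 33.3% called against 5.67% of all genes). Klrb1c was at 1.12 to 5.53 CPM, Tyrobp at 1.19 to 6.56 CPM and Fcer1g at 1.25 to 6.48 CPM in VM cells. In naive cells these 3 were at 0.657, 1.24 and 1.38 CPM, and none of them was called by edgeR over the 4 libraries. DESeq2 called 4 of the 6 higher. The 6 NK markers tested summed to 155 CPM in naive and 303 to 360 CPM in VM cells, of which 198 to 256 CPM were Eomes. Their part in these results was not tested.

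Of the inhibitory receptor genes 18.8% and of the costimulatory ones 23.1% were called, against 5.67% of all genes. Of 16 inhibitory genes, Tigit (2.89 CPM against 25.7, 16.4, 23.4 and 17.3 CPM; 2.84 ± 0.35, adjusted p = 0.0093), Entpd1, for CD39 (2.66 ± 0.27, adjusted p = 0.0052), and Cd101 (1.07 ± 0.14, adjusted p = 0.012) rose and none fell (median 0.23). Entpd1 was at 3.03 and 2.52 CPM in Sca-1- cells and 6.80 and 7.05 CPM in Sca-1+ cells, above 0.692 CPM in naive cells. With the 4 libraries as 1 group its adjusted p was 0.09. Among 13 costimulatory genes, Cd28 rose (135 CPM against 430, 278, 407 and 314 CPM; 1.40 ± 0.28, adjusted p = 0.044), and Cd226, for DNAM-1 (-0.77 ± 0.09, adjusted p = 0.0088), and Slamf1 (-0.99 ± 0.20, adjusted p = 0.044) fell. Slamf1 was not called without Sca-1+ A (adjusted p = 0.09) or Sca-1+ B (adjusted p = 0.058), and neither Cd28 nor Slamf1 was called without a filter (adjusted p = 0.058 for each). With the 4 libraries as 1 group the adjusted p of Slamf1 was 0.11.

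Of 16 BCL2 family genes 4 rose, on both sides of apoptosis (25% called, against 5.67% of all genes). Bcl2l1, for the survival protein BCL-XL, was at 11.2 CPM in naive cells and 38.3, 28.7, 32.3 and 27.9 CPM in Ly6C+ VM cells (1.5 ± 0.21, adjusted p = 0.014). Bcl2a1b, a survival gene with near copies that make its reads uncertain, also rose (1.20 ± 0.18). The death-promoting BH3 genes Bbc3, for PUMA (15.7 CPM against 87.6, 60.1, 76.0 and 54.4 CPM; 2.15 ± 0.30, adjusted p = 0.013), and Pmaip1, for NOXA (1.66 ± 0.30, adjusted p = 0.033), rose with them. The median of the family was 0.40. Pmaip1 had an adjusted p of 0.061 by limma-voom.

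In the group of S100, annexin and galectin genes, 6 of 19 rose and none fell (median 0.27, 31.6% called against 5.67% of all genes). Ahnak, a giant scaffold that binds annexins and S100 proteins, was at 309 CPM in naive cells and 1319, 1422, 1307 and 1227 CPM in Ly6C+ VM cells (2.09 ± 0.13, adjusted p = 0.0011). Anxa2 (8.91 CPM against 57.8, 44.1, 36.7 and 34.0 CPM; 2.25 ± 0.19) and the galectin gene Lgals1 (34.7 CPM against 72.9 to 95.1 CPM; 1.28 ± 0.14) rose as well, with S100a6 and Lmna. S100a4 rose from a low level, 0.195 CPM in naive cells against 1.91, 1.23, 5.46 and 5.14 CPM (3.87 ± 0.37), and had an adjusted p of 0.095 with the 4 libraries as 1 group.

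Of 25 TCR complex and proximal signalling genes 8% were called, near the 5.67% of all genes, with a median of -0.01. The adaptor gene Sla (162 CPM against 382, 376, 365 and 348 CPM, 1.18 ± 0.11, adjusted p = 0.0038) and the kinase gene Txk (140 CPM against 200 to 207 CPM, 0.55 ± 0.10, adjusted p = 0.033) rose and none fell. Txk was not called without Sca-1+ A (adjusted p = 0.12) or Sca-1+ B (adjusted p = 0.1). Of 36 interferon-stimulated genes 11.1% were called, with a median of -0.02. Mx1 (1.07 ± 0.14, adjusted p = 0.012) and Ly6e (0.56 ± 0.11) rose and Slfn5 (-0.48 ± 0.10) and Ifi213 (-0.57 ± 0.12) fell. The calls of Ly6e, Slfn5 and Ifi213 were lost without either Sca-1+ library. Among 16 guanylate-binding protein and immunity-related GTPase genes, 12.5% were called. Gvin1 rose (211 CPM against 482, 532, 526 and 562 CPM, 1.32 ± 0.13, adjusted p = 0.0041). Iigp1 was at 18.7 CPM in naive cells and 4.12 and 4.52 CPM in Sca-1- but 11.9 and 13 CPM in Sca-1+ cells (-1.35 ± 0.15, adjusted p = 0.0062), and with the 4 libraries as 1 group its adjusted p was 0.33. In class I antigen processing 1 of 17 fell, Tap1 (-0.51 ± 0.10, adjusted p = 0.046), a share of 5.88% that is near the background, and it was not called without Sca-1+ A (adjusted p = 0.15) or Sca-1+ B (adjusted p = 0.13).

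The immediate early and TCR-response genes split the A from the B libraries. Their 25 members summed to 6874 CPM in naive cells and to 10821, 4300, 9907 and 4520 CPM in Ly6C+ VM cells, so both A libraries lay above naive and both B libraries below it. Only 1 of the 25 was called (4%, against 5.67% of all genes). It was Egr3, a zinc finger factor induced by TCR signals, which fell (36.1 CPM against 22.5, 21.6, 15.8 and 15.1 CPM, -0.97 ± 0.11, adjusted p = 0.0077, adjusted p = 0.064 with the 4 libraries as 1 group). In the A libraries alone against naive, 16 of the 25 were called higher, and in the B libraries alone 3 were called higher and 9 lower. Tnf was at 21.3 CPM in naive cells and 35.2, 7.89, 40.7 and 16.7 CPM in VM cells (0.23 ± 0.79) and was not called. The 13 heat shock genes were also higher in the A libraries, with sums of 8887 and 9063 CPM there and 6243 and 6362 CPM in the B libraries. Here both B libraries lay above naive, which was at 5756 CPM. None was called over the 4 libraries, but 12 of the 13 were called higher in the A libraries alone, 2 in the B libraries alone and 5 without Sca-1- B. What set the A and B libraries apart is not stated in the labels. Its part in genes with both A above both B libraries, such as Ifng, Ccl4, Tbx21 and Dlg5, was not tested.

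Mitosis genes were higher in Ly6C+ VM cells at low levels. Of 35 tested, 25 rose and none fell, and the median was 1.96 (71.4% called). Their summed level was 136 CPM in naive cells and 216, 299, 433 and 577 CPM in Ly6C+ VM cells. Mki67, for the proliferation marker Ki-67, was at 7.94 CPM in naive cells and 33.3, 51.1, 81.9 and 115 CPM in VM cells (3.02 ± 0.34, adjusted p = 0.0072). Ube2c (0.462 CPM against 2.41, 3.23, 5.73 and 6.21 CPM; 3.14 ± 0.28), Bub1 (0.497 CPM against 2.42, 3.07, 6.31 and 7.67 CPM; 3.13 ± 0.29) and the cyclin gene Ccnb2 (2.22 ± 0.25) showed the same order, with Sca-1+ above Sca-1- libraries. Against naive, 7 of the 35 were called in Sca-1- cells alone and 26 in Sca-1+ cells alone. When the 4 libraries were fitted as 1 group, so that this difference counted as spread, only 1 was called, and limma-voom called 10. Of 35 DNA replication genes 9 rose and none fell (median 0.53, 25.7% called against 5.67% of all genes). Among the 9 were Uhrf1 (13.3 CPM against 22.6, 20.6, 38.6 and 40.2 CPM, 1.13 ± 0.11, adjusted p = 0.0048), Mcm10 (2.04 ± 0.24), Tk1 (1.87 ± 0.23) and Rrm2 (1.74 ± 0.22). With the 4 libraries as 1 group 2 of these 35 were called. Of 16 cell cycle entry genes 12.5% were called. E2f2 rose (17.2 CPM against 23.0, 24.7, 35.1 and 37.8 CPM, 0.78 ± 0.11, adjusted p = 0.015, and adjusted p = 0.19 with the 4 libraries as 1 group). Cdk2 fell (31.0 CPM against 14.7, 16.1, 14.5 and 19.2 CPM, -0.95 ± 0.16, adjusted p = 0.028).

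Markers of macrophages had part of the same order. The 11 monocyte and macrophage genes tested summed to 25.2 CPM in naive cells and to 45.3, 15.6, 174 and 249 CPM in Ly6C+ VM cells, and 0 of 11 were called over the 4 libraries by edgeR. Without Sca-1- B 9 of them were called higher, without Sca-1- A 6, and without either Sca-1+ library 1. Csf1r was at 3.46 CPM in naive cells and 6.17, 1.23, 36.7 and 51.8 CPM in VM cells, and Vcam1 at 3.48 CPM and 7.43, 1.68, 38.9 and 63.8 CPM. Sca-1- B, which was second lowest of the Ly6C+ libraries for mitosis genes and above Sca-1- A, was the lowest for macrophage genes and below naive. The part of macrophage RNA in the mitosis and replication results was not tested. Nor was it tested for calls such as Zeb2 and Entpd1, which also had both Sca-1+ libraries above both Sca-1- libraries. Haemoglobin genes such as Hbb-bs were at 5.97 CPM or lower in these 5 libraries. Genes of dendritic cells and MHC class II summed to 136 CPM in naive and 47.6 to 128 CPM in VM cells. Summed levels were 536 CPM in naive and 538 to 629 CPM in VM cells for 8 B cell genes, most of it Ighm (504 and 504 to 597 CPM). They were 34.3 and 29.3 to 45.1 CPM for 4 plasma cell genes, 43.5 and 31.2 to 52.0 CPM for 5 CD4 T cell genes, and 11.1 and 9.92 to 12.1 CPM for 4 gamma delta and innate-like genes. They were 8.5 and 5.25 to 23.4 CPM for 6 erythroid and platelet genes, and 161 and 92.6 to 105 CPM for 4 stromal and endothelial genes, most of it Pecam1. None of the 10 neutrophil markers was in the table.

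**Figure D3:**
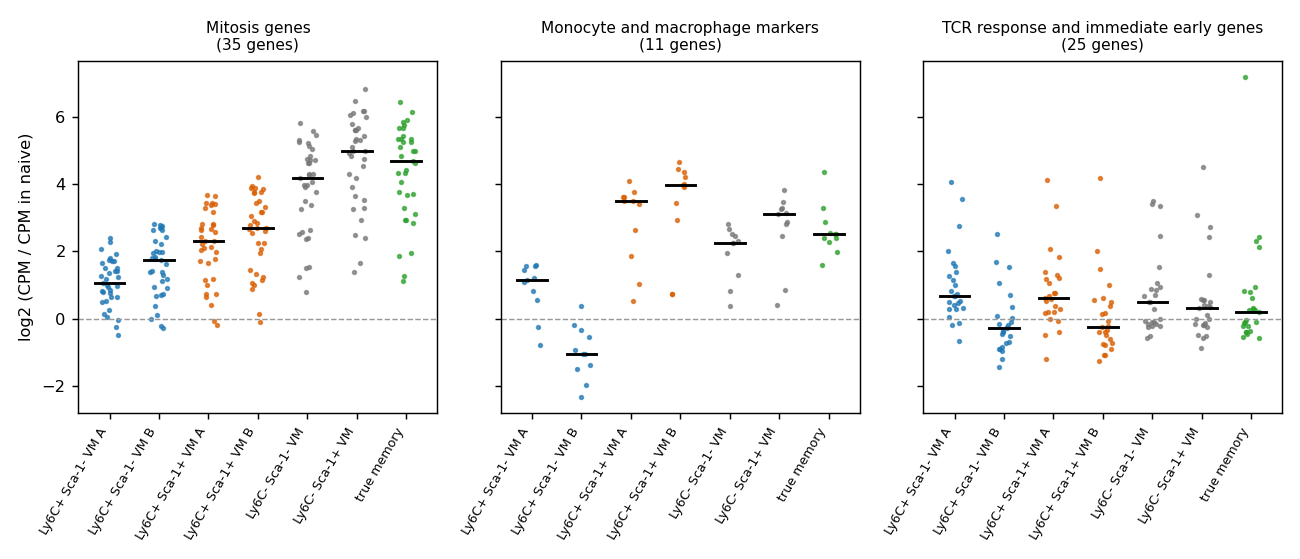
Each point is the log2 ratio of a gene's CPM to its CPM in the naive library, for the 7 other libraries, in 3 gene lists; bars are medians and the dashed line marks the naive level. Medians for mitosis genes were 1.06, 1.75, 2.30 and 2.71 in the Ly6C+ VM libraries, 4.17 and 4.98 in the Ly6C- VM libraries and 4.69 in true memory, while the TCR response list split the A (0.68, 0.60) from the B libraries (-0.28, -0.24).

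All 23 cholesterol biosynthesis genes had a negative log2 fold change, with a median of -0.43, but only 3 were called (13%, against 5.67% of all genes). Among the 3 were Sqle, squalene epoxidase (11.1 CPM against 3.33, 2.79, 4.39 and 4.54 CPM, -1.58 ± 0.17, adjusted p = 0.0066), and Hmgcs1 (-0.62 ± 0.11, adjusted p = 0.032). Hmgcs1 was not called without Sca-1+ A (adjusted p = 0.056) or Sca-1+ B (adjusted p = 0.071). In 18 of the 23 all 4 VM libraries lay below naive, a position that 29.4% of all genes had. Of 21 glucose uptake and glycolysis genes 19% were called. Hk2 (1.55 ± 0.21, adjusted p = 0.013), Pgam1 (0.86 ± 0.10, adjusted p = 0.0085) and Pfkp (0.68 ± 0.12, adjusted p = 0.028) rose. Pfkp was not called without Sca-1+ A (adjusted p = 0.075) or Sca-1+ B (adjusted p = 0.06), and in the A libraries alone 11 of the 21 were called higher. Ldhb, for the heart-type subunit of lactate dehydrogenase, fell (9.30 CPM against 2.25, 2.50, 2.02 and 2.86 CPM; -1.95 ± 0.24, adjusted p = 0.0092). Of 20 fatty acid oxidation genes and 78 nuclear oxidative phosphorylation subunits none was called by edgeR, with medians of -0.08 and 0.05. Among 84 cytosolic ribosomal protein genes 82 had a positive log2 fold change (median 0.18), against 50.9% of all genes tested. Of these 1 was called, Rps4l (2.50 ± 0.47, adjusted p = 0.034; by limma-voom adjusted p = 0.059), whose likeness to other Rps4 genes makes its reads uncertain. In the A libraries alone 55 of the 84 were called higher, and in the B libraries alone 3.

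**Figure D4:**
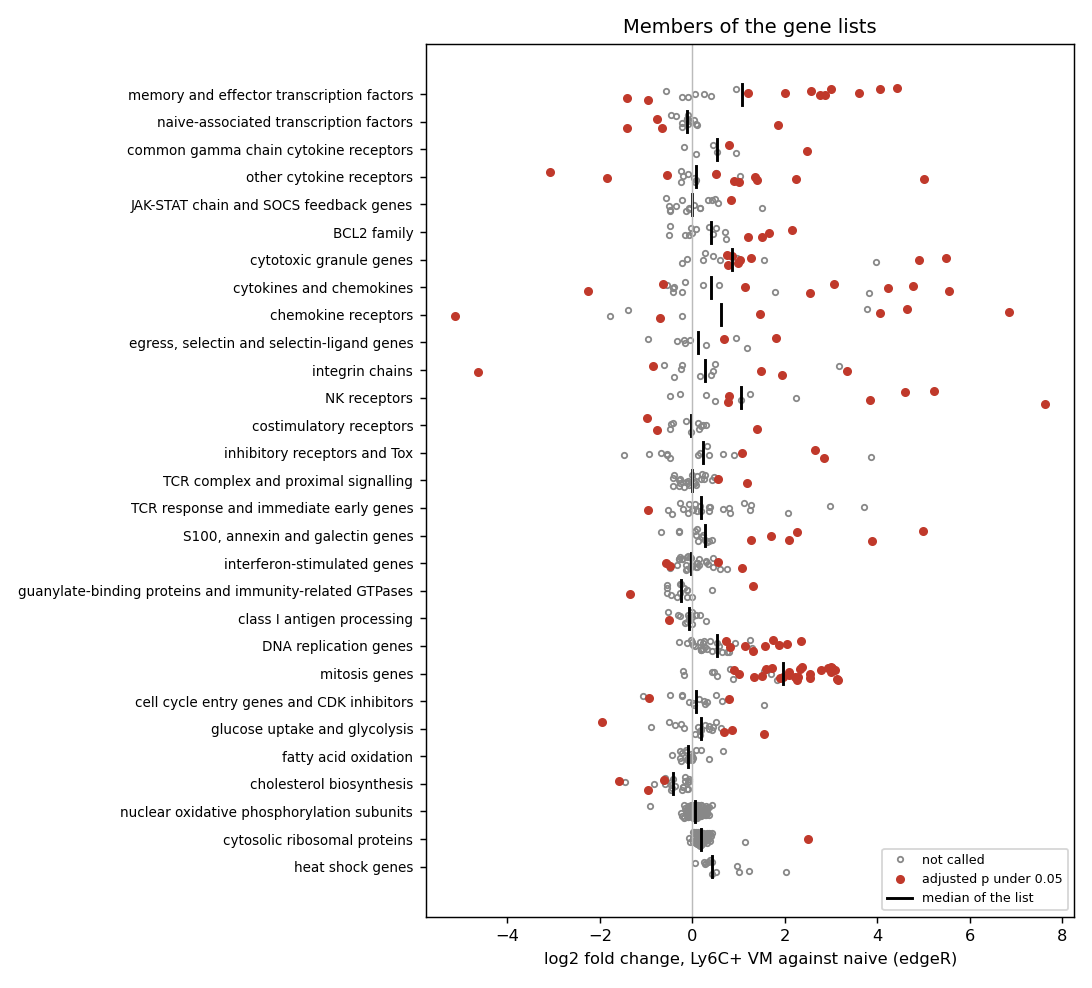
Each point is the edgeR log2 fold change of 1 gene, Ly6C+ VM against naive, in the gene lists by role, with marker lists of other cell types left out; filled points passed an adjusted p under 0.05, open points did not, and bars mark list medians. Among these lists mitosis genes have the highest median, 1.96, with 25 of 35 called, and cholesterol biosynthesis genes the lowest, -0.43, with 3 of 23 called.

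Taken by Sca-1, 674 genes were called in Ly6C+ Sca-1- against naive cells (4.46%, with 421 or 2.79% higher and 253 or 1.67% lower) and 696 in Ly6C+ Sca-1+ against naive cells (4.61%, with 489 or 3.24% higher and 207 or 1.37% lower). Both use the naive library. Of the 535 genes higher over the 4 libraries, 360 were called in both subsets, and of the 322 lower, 175 were. The value over the 4 libraries is the mean of the 2 subsets, so these counts do not measure how alike the subsets are. As examples, the log2 fold change was 2.64 in Sca-1- and 2.30 in Sca-1+ cells for Il2rb, 4.60 and 4.68 for Cxcr3, 5.08 and 4.94 for Il18rap, and 5.74 and 5.36 for Ccl5. Ccr9 was at -5.88 and -4.37, Itgae at -5.38 and -3.88 and Ifngr2 at -3.75 and -2.41, and Zeb2 was at 2.16 and 3.85. Whether the subsets differ is another comparison and was not tested here.

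Ly6C+ cells were also tested against Ly6C- VM cells (2 libraries, 1 of Sca-1- and 1 of Sca-1+ cells) in the same fit. There 3240 genes differed (21.4% of those tested, 8.88% higher and 12.6% lower in Ly6C+ cells). Each Ly6C- group was 1 library, so its own spread did not enter this test. Of the 535 genes higher than naive in Ly6C+ VM cells, 266 (49.7%) were also higher than in Ly6C- VM cells, 137 (25.6%) were lower than in Ly6C- VM cells, and 132 (24.7%) were not called. Of the 322 lower than naive, 207 (64.3%) were lower and 3 higher than in Ly6C- VM cells, with 112 (34.8%) not called. Both sets of genes were picked by the same Ly6C+ libraries, which tilts these shares in advance. They cannot be read against the 8.88% and 12.6% of all genes. Nor do they measure how much is particular to Ly6C+ cells. Cd163l1 was at 9.96 and 13.6 CPM in Ly6C- cells, so that Ly6C+ cells exceeded them by 3.63 ± 0.13 on the log2 scale (adjusted p = 0.00035). Gzmm was at 4.73 and 5.39 CPM there (difference 3.08 ± 0.27, adjusted p = 0.0014), and Il18rap at 38.3 and 81.7 CPM (2.23 ± 0.09, adjusted p = 0.00035). Il2rb was at 510 and 568 CPM in Ly6C- cells (1.20 ± 0.12, adjusted p = 0.0023), and Tbx21 at 26.9 and 55.7 CPM (1.43 ± 0.23, adjusted p = 0.01). Most memory and effector transcription factors did not share that direction. Of the 18, 5 were higher and 10 lower in Ly6C+ than in Ly6C- cells, with a median difference of -0.43. Bhlhe40 (-1.90 ± 0.32), Irf8 (-1.15 ± 0.13) and Zeb2 (-0.93 ± 0.18), which rose against naive, were among the 10. Myb, which also rose against naive, was lower too (-0.94 ± 0.10).

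The decreases of Itgae, Ccr9 and Ifngr2 were larger in Ly6C+ cells. Itgae was at 131 and 207 CPM in Ly6C- cells and 6.03 to 26.4 CPM in Ly6C+ cells (difference -3.68 ± 0.22, adjusted p = 0.00051). Ccr9 was at 83.6 and 38.1 CPM (-3.24 ± 0.39, adjusted p = 0.0037), and Ifngr2 at 26.3 and 20.9 CPM (-2.08 ± 0.28, adjusted p = 0.0056). Id2, which fell in Ly6C+ cells, was at 105 and 153 CPM in Ly6C- cells (-1.19 ± 0.11, adjusted p = 0.0016). All 35 mitosis genes were lower in Ly6C+ than in Ly6C- cells (median -2.55). So were 33 of 35 replication genes, against 12.6% of all genes tested. All 5 CD4 T cell markers and 1 of 11 macrophage markers tested were lower too, and their part in these results was not tested. Slamf7 (0.03 ± 0.09), Ifng (-0.04 ± 0.46), Xcl1 (-0.09 ± 0.19) and Lef1 (0.07 ± 0.10) did not pass the test of this difference. That does not show that they are alike, and the SE of Ifng was the widest of the 4.

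**Figure D5:**
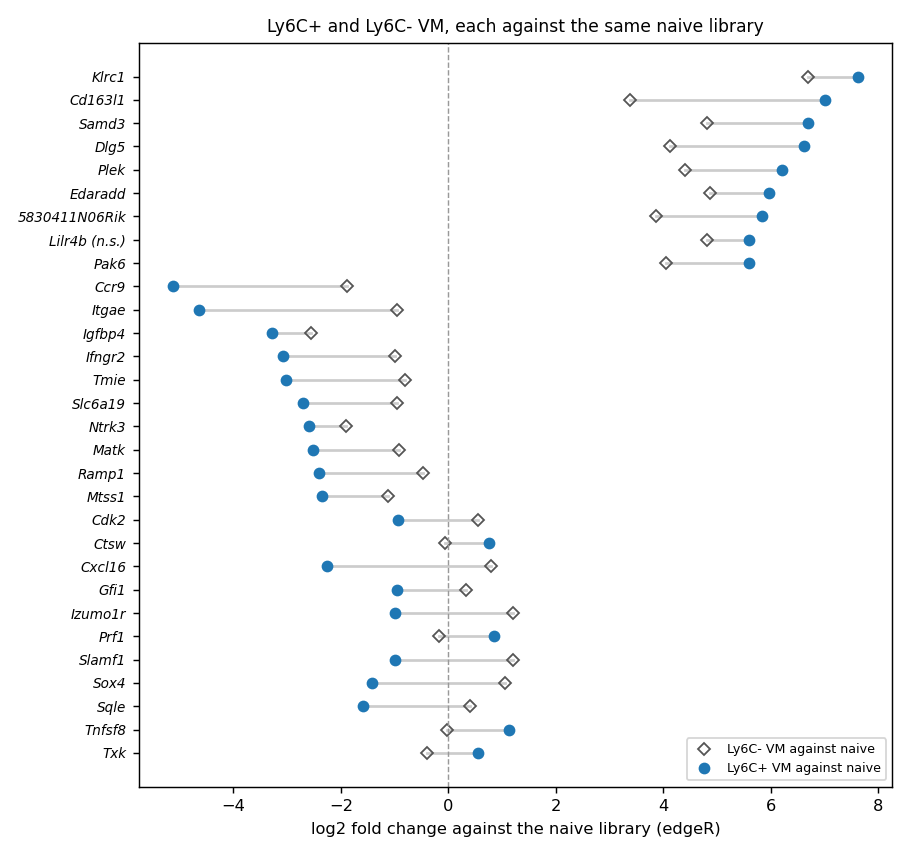
Log2 fold changes against the same naive library are shown for Ly6C+ VM (filled circles) and Ly6C- VM cells (open diamonds), for genes with the largest changes and 11 genes whose fold changes had opposite signs; names marked n.s. did not differ between the 2 at an adjusted p under 0.05. Itgae stands at -4.63 in Ly6C+ and -0.95 in Ly6C- cells.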

How the data were processed

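RNA was measured in 8 mouse spleen CD8 T cell libraries, made as TruSeq stranded mRNA libraries with paired reads of 101 bases, per the labels' protocols. The submitters' processing notes name FastQC 0.11.7, Trimmomatic 0.38, R 3.6.0, edgeR and the mm10 build, with no aligner or counter given in the sources used here. Values in the deposited table are whole read counts per gene, as its column names state. The smallest count is 1, so a gene with no count in any one library is absent. A gene with no naive count therefore cannot appear among those that rose. Listed genes that are absent are missing from the counts, shares and medians of their lists. These covered 13 of 29 NK receptor genes, 10 of 14 chemokine receptors and 36 of 45 interferon-stimulated genes. Whether counting used strand is not stated, so overlapping genes are uncertain. Column names of the Ly6C+ libraries show the group but not the replicate number, so the library without a suffix is called A and the one with a suffix B, and what the suffix means is not stated; the naive column has none. The table's 28 other columns of per-sample values were not used.

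Counts of 15609 genes were filtered with filterByExpr, scaled by TMM and fitted with edgeR 4.0.16 (R 4.3.3) over all 8 libraries, with 1 coefficient a group. The Ly6C+ value is the mean of the 2 Ly6C+ coefficients. There were 2 residual degrees of freedom, a prior of 4.14 and a common biological coefficient of variation of 0.151. Every adjusted p is from this quasi-likelihood test with Benjamini-Hochberg adjustment over 15112 genes, unless another tool, fit, filter or left-out library is named. Those values were adjusted over the genes that each alternative tested. CPM values are counts scaled by these library sizes, and precision is limited by counting for genes at few counts. The scripts were tested on simulated data. Named genes were the 10 largest changes in each direction among called protein-coding genes with a mean of at least 5 CPM and a 2-fold difference in every Ly6C+ library, then the 4 smallest p-values of each list, with further members named where a count needed them; a few genes that the rule selects are not reported here. The gene lists and the comparison were chosen with earlier results of these data known. Gene IDs matched RefSeq (GRCm38.p6) for 15074 genes, which gave coordinates and promoters. Alternatives were DESeq2 1.42.0, its size factors, limma-voom (limma 3.58.1), other filters, a 2-fold minimum, a fit of 5 libraries, a block by suffix and leaving out each Ly6C+ library.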

Additional observations from a re-analysis of the deposited data

Results flagged for a closer look

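For 11 named genes the Ly6C+ and Ly6C- VM means lay on opposite sides of the naive library, Ly6C+ cells were called against naive, and the difference between Ly6C+ and Ly6C- VM cells itself passed edgeR's test. Higher in Ly6C+ cells were Tnfsf8 (Ly6C+ minus Ly6C- 1.15 on the log2 scale), the perforin gene Prf1 (1.02), the kinase gene Txk (0.95) and the cathepsin gene Ctsw (0.82). Prf1 was at 78.4 to 84.5 CPM in Ly6C+ cells, 45.5 CPM in naive cells and 40.4 and 40.5 CPM in Ly6C- cells. Lower in Ly6C+ cells were Cxcl16 (-3.05), Sox4 (-2.48), Izumo1r (-2.2), Slamf1 (-2.18), Sqle (-1.98), Cdk2 (-1.5) and Gfi1 (-1.28). Izumo1r, a folate receptor family gene of regulatory CD4 T cells, was at 27.5 CPM in naive cells, 9.85 to 18.2 CPM in Ly6C+ cells and 74.7 and 54 CPM in Ly6C- cells. Cd4 itself was at 3.56 and 8 CPM in the Ly6C- libraries against 0.954 CPM or lower in Ly6C+ cells, and its part in these differences was not tested. Against naive, the Ly6C- libraries passed edgeR's test for 2 of the 11, Izumo1r (log2 fold change 1.21 ± 0.23, adjusted p = 0.032) and Slamf1 (1.20 ± 0.24, adjusted p = 0.036), and for the other 9 the side of naive on which they lay did not pass. For Tnfsf8 they were at 48.1 and 49.2 CPM, next to 49.3 CPM in naive cells, and for Sox4 at 74.4 and 13.1 CPM, on either side of 15.0 CPM.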

How the results depend on the processing

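All 857 called genes kept their sign in each alternative that tested them. Of 284 genes tabulated singly, 25 differed in sign in at least 1 alternative, none of them called over the 4 libraries; Klf2 was at 0.25 in the A and -0.63 in the B libraries alone (log2), and Tnf at 0.83 and -0.79. Against 857 calls, DESeq2 made 1311 and a 2-fold minimum 200, and leaving out 1 Ly6C+ library gave 710 (without Sca-1+ A) to 1760 (without Sca-1- B), with 764 without Sca-1+ B and 1752 without Sca-1- A. The A libraries alone gave 2808 and the B libraries alone 1315. Ly6C+ Sca-1- cells against naive gave 1116 genes by DESeq2 and 667 to 1364 with a library left out, Ly6C+ Sca-1+ cells 1168 and 498 to 1685, and Ly6C+ against Ly6C- cells 2039 to 4381. The cause of these shifts was not tested. The share of higher genes among the calls was 76% with the 2-fold minimum and 53.6% in the B libraries alone. With no filter 778 genes were called, by limma-voom 789, and with 5 libraries 955. Of the 857, 745 were also called by limma-voom and 699 with 5 libraries.

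No paired analysis was possible because the columns carry suffixes and not the replicate numbers of the labels. A block by suffix, which sets A against B libraries, gave 3442 calls, and whether suffixes mark shared samples is not stated. Mitosis genes called higher ranged from 1 (5 libraries) to 30, DNA replication genes from 1 (B libraries alone) to 23 (block), TCR response genes from 0 to 17 (block), heat shock genes from 0 to 12 (block), ribosomal protein genes from 0 (limma-voom) to 57 (block) and macrophage markers from 0 to 9 (without Sca-1- B). Further calls were lost without a filter (Il15ra, Il12rb1, Lilr4b, Tap1, Slfn5 and Ifi213), by limma-voom (Il15ra, Il12rb1, Slfn5 and Cxcl16) and with 5 libraries (Cxcl16). In the B libraries alone 20 of the genes tabulated singly lost their call, and in the A libraries alone 4. With 1 naive library, no result could be repeated in a second naive sample, and genes at few naive counts have uncertain folds.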

Other observations

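Among marker genes of other cell types, 5 were called between Ly6C+ VM and naive cells in addition to those described. Zbtb7b, for the CD4 lineage factor ThPOK that memory CD8 T cells are also known to express, was at 0.462 CPM in naive cells and 5.92, 3.05, 7.48 and 6.93 CPM in Ly6C+ VM cells (log2 fold change 3.62 ± 0.49, adjusted p = 0.012 by edgeR). All 4 libraries were above naive while Cd4 was at 0.954 CPM or lower. Ighd, an immunoglobulin constant region gene, was at 5.26 CPM and 16.7, 19.3, 14.6 and 14.1 CPM (1.61 ± 0.19, adjusted p = 0.0077), while other B cell genes did not share this direction or were not called. Cd79b was at 18.5 CPM and 11.2, 12.7, 12.7 and 14.9 CPM (-0.53 ± 0.16, adjusted p = 0.14), Ighm at 504 CPM and 504 to 597 CPM, and Cd79a and Pax5 at 2.01 CPM or lower in these 5 libraries. The part of B cell RNA in the Ighd result was not tested. Pecam1, an adhesion receptor also found on naive T cells, fell from 158 CPM to 94.9, 91.4, 104 and 103 CPM (-0.69 ± 0.09, adjusted p = 0.011). Izumo1r fell by 0.99 ± 0.19 on the log2 scale (adjusted p = 0.036), with an adjusted p of 0.1 when the 4 libraries were 1 group. Pdgfrb, a stromal receptor gene, was at 1.38 CPM and 0.191 to 0.396 CPM (adjusted p = 0.038), and was not called by DESeq2 (adjusted p = 0.16) or without Sca-1+ A (adjusted p = 0.057).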
